A study of Mus musculus with 12 samples.

Results

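CD8 T cells of the islets whose T cell receptor alpha chain joins the V gene TRAV16 to the J gene TRAJ42 were picked from droplet libraries by their receptor sequence. A cell was counted when a productive alpha chain carried this gene pair, the CD4 antibody count was under 20 and Cd8a plus Cd8b1 gave at least 2 mRNA molecules (unique molecular identifiers, UMIs). The rule found 187 cells among 27423 barcodes, with 7, 20, 70 and 90 cells in replicates 1 to 4. After the quality filter 182 remained (7, 19, 68 and 88), and they were compared with 2851 other CD8 cells that held a productive alpha chain (884, 526, 762 and 679).

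The cells came from pancreatic islets of female NOD mice, a strain that develops autoimmune diabetes, taken at 12 weeks of age while still pre-diabetic. There was a single group of mice, with neither treatment nor genetic modification named, in 4 biological replicates. Each replicate gave a 5' mRNA library, a receptor library and an antibody library from live, sorted cells that carried the TCR beta chain. Whether each replicate was 1 mouse or several pooled is not given in the labels, so the p-values measure the spread between these 4 samples, which share a strain, sex and age.

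An alpha beta T cell receptor is built by joining gene segments, and the CDR3 loop at each join, partly encoded by bases added or trimmed at random, touches the peptide that the receptor reads. In NOD mice, CD8 T cells that recognise IGRP, a protein of islet beta cells, are known to use an alpha chain of this gene pair. No peptide binding was measured here, so the specificity of the cells is inferred from the gene names only. Contig annotation named all of these chains TRAV16N, and TRAV16 belongs to a set of near-identical copies, so the copy is uncertain. In the RefSeq annotation of GRCm38.p6, Trav16n is a V segment at chr14:53351090-53351621, Trav16 lies at chr14:53743174-53743705 and Traj42 at chr14:54175773-54175836.

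The alpha chains were few. The 182 cells held 13 distinct CDR3 alpha nucleotide sequences, and a pair of these covered 77 and 75 cells. They are shown first because they carry most of the cells. Capitals mark bases that fall outside the ends shared by most chains with the same V gene or the same J gene and other partners. Genomic sequences of the segments were not used, so a capital can still be a segment base that most chains have trimmed.

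alpha chain of 77 cells: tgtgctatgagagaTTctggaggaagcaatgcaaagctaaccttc
alpha chain of 75 cells: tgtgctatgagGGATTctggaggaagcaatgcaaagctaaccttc
alpha chain of 8 cells, no base outside the shared ends: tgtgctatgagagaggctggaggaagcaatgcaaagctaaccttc
alpha chain of 6 cells: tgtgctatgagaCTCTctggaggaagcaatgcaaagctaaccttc

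The chain of 77 cells occurred in all 4 replicates, paired with 8 different beta chains. That of 75 cells occurred in replicates 3 and 4. Both encode aspartate at position 5 of the CDR3, counted from its first residue, through the codon gat. Aspartate stood at position 5 in 155 of 182 cells, or 85.2%, glutamate in 20 cells and leucine in 7. This share of cells is weighted by the largest clones. Counted once per receptor (an alpha chain with its beta chain, within a replicate), aspartate stood there in 15 of 25, glutamate in 8 and leucine in 2. By replicate, aspartate was found in 6 of 7, 2 of 19, 67 of 68 and 80 of 88 cells. Replicate 2 stood apart, with glutamate in 10 of its 19 cells and leucine in 7.

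The receptors are shown next with their beta chains, since the same few pairs account for most of the cells. TRBV13-3, at chr6:41130147-41130585, and TRBV13-1, at chr6:41116036-41116468, are V segments of the beta locus, and TRBJ2-4 lies at chr6:41543362-41543410.

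TRBV13-1 with TRBJ2-7, 31 cells of replicate 4: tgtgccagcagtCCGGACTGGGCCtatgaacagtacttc
TRBV13-3 with TRBJ2-7, 29 cells of replicate 3: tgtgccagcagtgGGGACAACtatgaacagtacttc
TRBV13-3 with TRBJ2-4, 77 cells of replicates 3 and 4: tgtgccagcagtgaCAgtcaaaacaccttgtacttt
TRBV3 with TRBJ2-7, 7 cells of replicate 2: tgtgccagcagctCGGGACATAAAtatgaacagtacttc

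The 31-cell receptor used the alpha chain of 77 cells, and the 29-cell receptor used that of 75 cells. The TRBJ2-4 beta chain holds only 2 bases outside the shared ends and was found with both of these alpha chains. With the alpha chain of 75 cells it made up 20 cells of replicate 3 and 22 of replicate 4, and with that of 77 cells it made up 15 and 20.

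Of the 182 cells, 177 held exactly 1 beta chain and formed 25 receptors, counted within replicates. Of these receptors, 10 were held by 2 or more cells and 15 by 1 cell. The 6 receptors of at least 15 cells held 137 cells, all of them in replicates 3 and 4. The largest CD8 clone of the series, with 143 cells, was not among them.

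**Figure D1:**
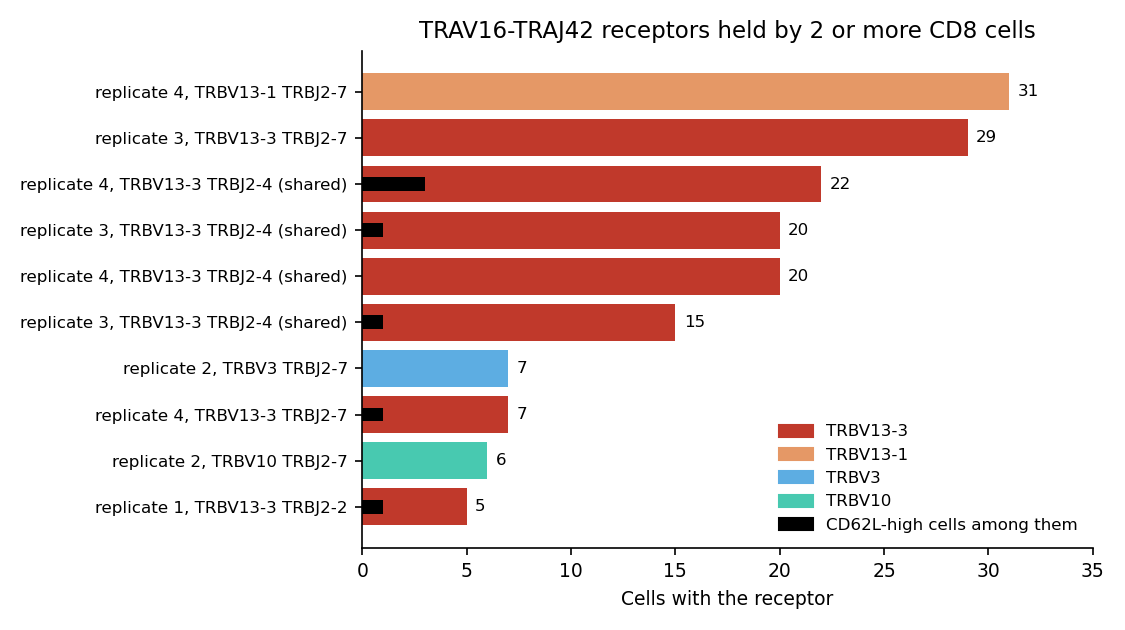
Number of cells (x axis) with each TRAV16-TRAJ42 receptor held by 2 or more CD8 cells, one bar per receptor and replicate, coloured by beta V gene, with black bars for the CD62L-high cells among them. The 4 bars marked shared are a pair of receptors found in both replicates 3 and 4, with 20, 15, 22 and 20 cells.

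Identical receptors in separate libraries were rare outside this gene pair. Across all T cells, replicates 3 and 4 shared 2 clonotypes (the same CDR3 nucleotides in both chains), and both were TRAV16-TRAJ42, with 38 cells in replicate 3 and 43 in replicate 4 over all barcodes. Replicates 1 and 3 shared 1 clonotype of other genes, and the other 4 pairs of replicates shared 0. Of the 13 CDR3 alpha sequences of the gene pair, 4 (30.8%) were found in at least 2 replicates, against 23 of 1803 (1.28%) among other CD8 cells. For CDR3 beta the counts were 1 of 22 (4.55%) and 4 of 1810 (0.221%). These shares are descriptions, because the gene pair itself fixes most of the bases of its alpha chains. Replicates 3 and 4 also had 102 cell barcodes in common, of which 19 carried a paired receptor in both, and 0 of the 19 carried the same receptor.

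The gene pair was more frequent among CD8 than CD4 clonotypes in 4 of 4 replicates. It made up 0.430, 2.31, 1.23 and 3.09% of CD8 clonotypes in replicates 1 to 4 (3 of 698, 8 of 347, 5 of 408 and 13 of 421). Among CD4 clonotypes the shares were 0.231, 0.0737, 0.311 and 0.192% (5 of 2167, 1 of 1357, 6 of 1930 and 4 of 2082). All CD8 shares lay above all CD4 shares. The means were 1.76 ± 1.17% and 0.202 ± 0.0987% (SD, n = 4), a difference of 1.56 ± 1.23 percentage points with p = 0.125 in a two-sided exact permutation test of the paired differences. That is the smallest p that 4 pairs allow.

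Each gene of the pair was examined by itself. TRAV16 was used by 12.7 ± 2.30% of CD8 and 3.93 ± 0.50% of CD4 clonotypes (SD, n = 4), and TRAJ42 by 4.37 ± 1.18% and 3.36 ± 0.454%. If the genes joined independently, the product of their shares would give the pair in 0.568 ± 0.236% of CD8 clonotypes and 0.132 ± 0.0251% of CD4 clonotypes. The shares in this product include the clonotypes of the pair. Among CD8 clonotypes of replicate 1 the product, 0.377%, lay close to the 0.430% found. In replicates 2 to 4 it was 0.703, 0.360 and 0.831%, against 2.31, 1.23 and 3.09% found. Among CD8 clonotypes with TRAJ42, 38.4 ± 19.3% used TRAV16, and among CD4 clonotypes 6.20 ± 3.66% did. These shares were not tested.

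The CD4 cells that held the gene pair, 25 after the filter, used in part the same residues at the join and in part others. Asparagine stood at position 5 in 11 of the 25, glutamate in 8, aspartate in 4 and glycine in 2, and 0 of the 182 CD8 cells had asparagine there. Counted by receptor, glutamate stood there in 7 of 15, asparagine in 3, aspartate in 3 and glycine in 2. Of the 11 cells with asparagine, 7 were of 1 receptor of replicate 3, and replicate 1 had 0 among its 7 cells. The CD4 chain with asparagine is shown because that residue was not found at position 5 in the CD8 cells.

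CD4 alpha chain with asparagine, 11 cells of replicates 2, 3 and 4: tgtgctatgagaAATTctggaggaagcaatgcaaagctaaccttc

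It was paired with TRBV15 and TRBJ1-1 in each of those replicates, with a different CDR3 beta in each. Only 1 cell of the CD4 gate held a receptor also found among the CD8 cells.

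The CDR3 alpha of the gene pair was nearly uniform in length and longer than in other CD8 clonotypes. Its mean was 45.0, 45.38, 45.0 and 45.0 bases in replicates 1 to 4, against 41.12, 41.16, 41.03 and 41.32 bases in other CD8 clonotypes. The groups did not overlap, and the difference was 3.93 ± 0.224 bases (SD, n = 4; two-sided exact permutation p = 0.125, the smallest possible). The cells were picked by these 2 genes, which supply most bases of the loop. The test therefore says little beyond that choice. A CDR3 alpha of 45 bases was found in 24 of 28 chains and in 178 of 182 cells. Chains that used TRAV16 with another J gene were 45 bases long in 28.02% of 182 clonotypes, with a mean of 44.25 ± 0.737 bases (SD over 4 replicates). Those that used TRAJ42 with another V gene were 45 bases long in 39.5% of 43 clonotypes, with a mean of 43.78 ± 1.86 bases. Both reference sets thus had means closer to the gene pair than other CD8 clonotypes had, with a wider spread of lengths.

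CDR3 beta length gave no such separation. The means of the gene pair were 45.0, 39.0, 37.8 and 38.08 bases, against 41.84, 42.1, 41.37 and 41.79 bases in other CD8 clonotypes. Replicate 1, with 3 clonotypes of the pair, was above the others, and replicates 2 to 4 were below. The difference was -1.81 ± 3.32 bases (SD, n = 4; exact permutation p = 0.375), and without replicate 1 it was -3.46 bases.

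A single beta V gene stood out among the partners of the alpha chain. TRBV13-3 was used by 66.7, 37.5, 60 and 61.5% of the TRAV16-TRAJ42 clonotypes in replicates 1 to 4 (2 of 3, 3 of 8, 3 of 5 and 8 of 13). In other CD8 clonotypes it was used by 9.78, 7.38, 6.20 and 7.84%. Every share of the gene pair lay far above every share of the others, with means of 56.4 ± 12.9% and 7.80 ± 1.49% (SD, n = 4). The log2 difference was 2.85 ± 0.41 (SE), with an adjusted p of 1.11e-07 in edgeR's quasi-likelihood test on clonotype counts, blocked by replicate. TRBV13-3 was the only gene called at an adjusted p under 0.05 among 19 beta V genes, so that 5.26% of the genes were called. In cells rather than clonotypes, TRBV13-3 was found in 123 of 177 cells and TRBV13-1 in 32, nearly all of the latter from the 31-cell clone.

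Counting cells in place of clonotypes gave TRBV13-3 a log2 difference of 3.04 with an adjusted p of 0.0547, and 9 other beta V genes were then called lower. Clonotypes that held TRAV16 with another J gene used TRBV13-3 in 10.4 ± 5.10%, and those that held TRAJ42 with another V gene in 7.92 ± 9.17% (SD, n = 4).

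**Figure D2:**
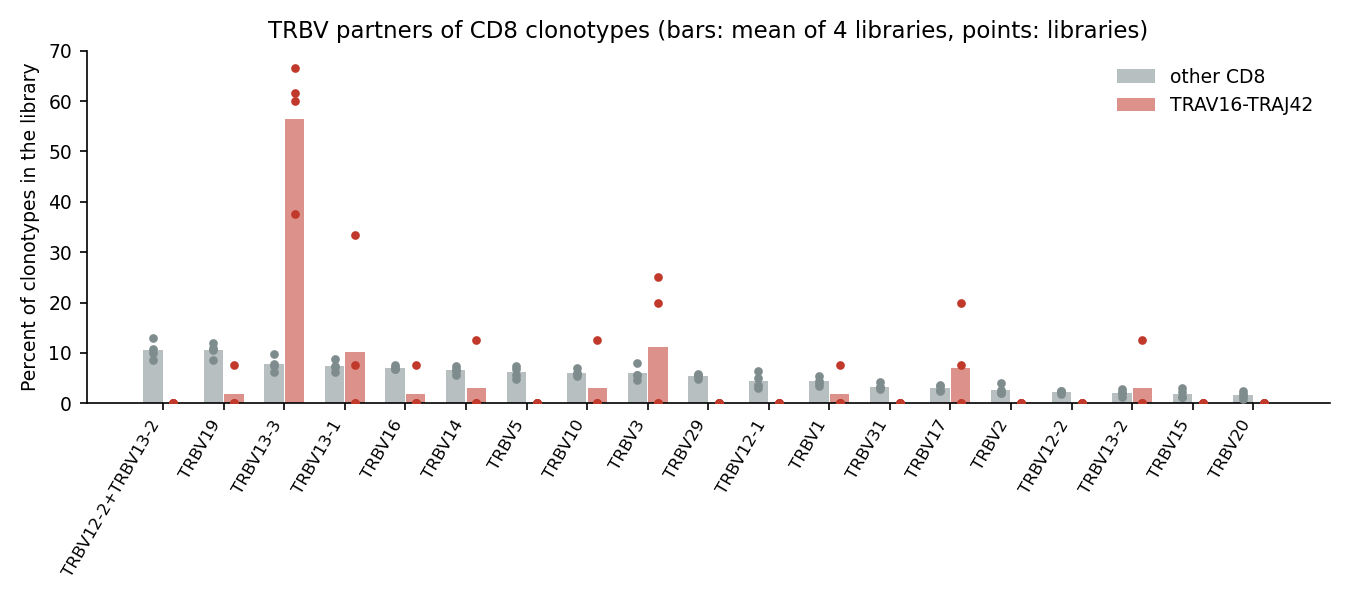
Share of clonotypes (y axis, percent) that used each beta V gene (x axis) among TRAV16-TRAJ42 and other CD8 clonotypes. Bars are means of 4 replicates and points are replicates, and for TRBV13-3 the 4 red points lie between 37.5 and 66.7%, above all grey points.

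No beta J gene was called (0 of 12, 0.0%, with 1 at an unadjusted p under 0.05 in edgeR's test). TRBJ2-4, the J segment of the shared receptors, was used by 0, 12.5, 40 and 46.2% of the clonotypes of the pair and by 7.47 ± 1.03% of others (adjusted p = 0.307, edgeR). Without the replicate block it was the 1 gene called, at an adjusted p of 0.028. A clonotype here is a CDR3 beta with the whole set of alpha chains found in a cell, so that 1 beta chain counts more than once where cells of a clone differ in a further alpha chain, and the 25 receptors gave 29 clonotypes. By distinct CDR3 beta, TRBJ2-4 was used by 0 of 2, 1 of 8, 1 of 4 and 2 of 9, a log2 difference of 1.20 in place of 1.96 (adjusted p = 0.428, edgeR). TRBV13-3 was used by 1 of 2, 3 of 8, 2 of 4 and 4 of 9, a log2 difference of 2.52 (adjusted p = 0.000457, edgeR).

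The label of the cells as CD8 T cells was checked with a readout that the rule had not used. An antibody against CD8b, read through the tag on its streptavidin, was positive on 78.1 ± 6.57% of the TRAV16-TRAJ42 cells and 77.2 ± 5.93% of other CD8 cells (SD, n = 4), against 9.91 to 14.4% of CD4-gated cells. Of the 182 cells, 1 had a Cd4 UMI and 0 lacked a UMI of Cd3. Of the 4 genes of the gamma-delta T cell list, Trdc and Tcrg-C1 were at 0 UMIs, but with Tcrg-C2 and Tcrg-C4 the list summed to 88.2, 168, 188 and 185 CPM (UMIs scaled to the population's total) in the gene pair and 63.1, 92.8, 65.3 and 56.0 CPM in other CD8 cells. Of 6 NK cell markers 5 were at 0 UMIs, and through Klre1 the list summed to 148 ± 59.6 CPM against 80.9 ± 49.5 (SD, n = 4). The 3 markers of invariant T cells were at 0 UMIs too, but other CD8 cells had only 0.255 to 1.48 CPM of them, close to the 1.045 CPM that a count of 0 allows in replicates 2 to 4 of the gene pair, so no difference was detectable at this depth. In all, 255 barcodes held the gene pair. Of these, 29 had CD8 UMIs together with a CD4 antibody count of at least 20, and 15 of the 29 held 2 beta chains.

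Clonal expansion, counted as the share of cells in clones of at least 2 cells, was higher than in other CD8 cells in 4 of 4 replicates. It was 83.3, 68.4, 97.0 and 89.5% for the gene pair and 23.7, 40.1, 51.4 and 43.1% for other CD8 cells. The groups did not overlap, and the difference was 45.0 ± 12.8 percentage points (SD, n = 4; two-sided exact permutation p = 0.125, the smallest possible). Of clonotypes rather than cells, 45.6 ± 20.8% of the pair and 9.82 ± 2.19% of the others were expanded. Replicate 1 held 3 clonotypes of the pair and replicate 3 held 5, so each clone weighs heavily in these shares.

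CD62L, the adhesion molecule that lets naive and central memory cells enter lymph nodes, was high on fewer of the cells. The CD62L-high share was 28.6, 15.8, 2.94 and 6.82% for the gene pair and 48.6, 27.8, 32.7 and 40.2% for other CD8 cells. It was lower in 4 of 4 pairs, although replicate 1 of the gene pair lay above the lowest replicate of the others. The difference was -23.8 ± 9.68 percentage points (SD, n = 4; exact permutation p = 0.125). CD11a, an integrin chain that rises on antigen-experienced T cells, was high on 71.4, 73.7, 89.7 and 90.9% against 24.8, 50, 56.4 and 49.5%. Its groups did not overlap, with a difference of 36.3 ± 10.03 percentage points (exact permutation p = 0.125), and the median antibody counts averaged 393 ± 13.3 and 164 ± 39.8.

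Among cells of expanded clones alone, the populations lay closer together. CD62L-high cells made up 6.76 ± 8.99% of the gene pair and 9.93 ± 4.04% of the others, and CD11a-high cells 88.2 ± 7.27% and 79.5 ± 9.08% (SD, n = 4). These values were not tested. Between 0 and 3 cells of each receptor in the plot of clone sizes were CD62L-high.

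**Figure D3:**
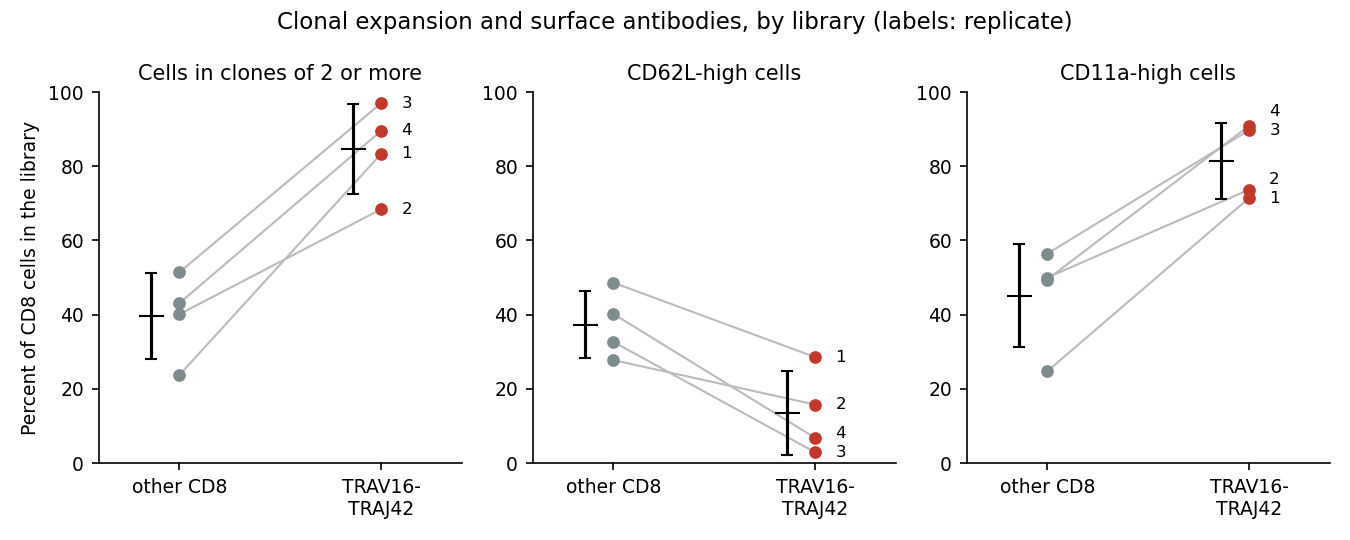
Percent of CD8 cells (y axis) in clones of 2 or more cells, CD62L-high and CD11a-high, for other CD8 and TRAV16-TRAJ42 cells, with 1 point per replicate, lines joining the same replicate, and the mean and SD in black. In each panel all 4 lines run in the same direction.

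Libraries differed in depth per cell. The median was 5636, 20117, 16548.5 and 7200.5 UMIs per cell for the gene pair and 4880, 5446, 5332 and 4743 for other CD8 cells, so the TRAV16-TRAJ42 cells held more RNA molecules in each replicate. B cell RNA was rarer in the cells of the pair in replicates 2 to 4: a UMI of Cd79a, Cd79b or Ms4a1 was present in 14.3, 5.26, 2.94 and 2.27% of the cells of the pair and in 14.9, 13.1, 10.9 and 10.5% of other CD8 cells. Their part in the expression results was not tested beyond the alternatives given beside them.

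For gene expression, UMIs were summed over the cells of each population and replicate, and values are CPM, the gene's UMIs scaled to a common total of that sum. Replicate 1, with 7 cells of the gene pair, was left out of the tests, which compare 3 pairs. Fewer cells expressing a gene and less RNA per cell cannot be told apart in such sums, and most of the cells summed belong to a few clones.

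Compared with all other CD8 cells, TRAV16-TRAJ42 cells had lower RNA for genes of quiescent, recirculating T cells and higher RNA for cell cycle genes. Of 9761 genes, 1302 (13.3%) were called by edgeR's quasi-likelihood test at an adjusted p under 0.05, 600 higher (6.15%) and 702 lower (7.19%). The median log2 difference over all genes was -0.002.

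In the list of stemness and memory genes, 13 of 20 fell and 1, Myb, rose, with a median log2 difference of -1.10. Il7r, the receptor for the survival cytokine IL-7, stood at 2.63, 19.2 and 17.3 CPM in replicates 2, 3 and 4, against 176, 114 and 134 in other CD8 cells. The groups did not overlap. Its log2 difference was -3.05 ± 0.30 (SE, n = 3 pairs; adjusted p = 7.40e-05, edgeR), and in replicate 1 the values were 44.1 and 194.

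Further genes of that list fell, by differing amounts. The log2 difference was -3.31 ± 0.24 for Dapl1, -4.16 ± 0.41 for Il6ra, the receptor for IL-6, and -1.92 ± 0.19 and -1.69 ± 0.23 for Foxp1 and Bach2, transcription factors that help to keep T cells quiescent. Il6ra had only 5 UMIs in the gene pair, so the size of its fall is uncertain. S1pr1, which guides T cells out of tissue, fell by 1.75 ± 0.23, and Ccr7, the lymph node homing receptor, fell by 1.67 ± 0.28. Without the largest TRAV16-TRAJ42 clone of each replicate neither passed, at adjusted p-values of 0.0549 for S1pr1 and 0.275 for Ccr7 in edgeR's test. Ccr7 had an adjusted p of 0.0992 without the replicate block, and S1pr1 one of 0.0904 in cells thinned to equal UMIs. Slamf6, a surface receptor used to mark stem-like CD8 cells, stood at 116, 67.6 and 66.1 CPM against 188, 154 and 151, a log2 difference of -1.04 ± 0.16 (adjusted p = 2.97e-05, edgeR). In replicate 1 the order was the opposite, 309 against 171. Tcf7, the transcription factor that defines stem-like T cells, had a log2 difference of -0.59 ± 0.19 and Klf2, which drives S1pr1, one of -1.02 ± 0.26, and neither passed the test (adjusted p = 0.0539 and 0.0589, edgeR). In 14 alternative settings (other tests and filters, subsets of cells or left-out replicates) Klf2 passed as lower in 10, among them the fits without any 1 of the 3 replicates, and Tcf7 in 5.

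Among genes of tissue residence, 2 rose and 2 fell of 12 tested, beside 6.15% and 7.19% of all tested genes. Itgae, the CD103 integrin chain that binds epithelium, stood at 2.63, 7.30 and 9.16 CPM against 78.2, 35.8 and 50.9. It fell by 2.69 ± 0.30 on the log2 scale (adjusted p = 2.49e-07, edgeR). Itga1, the CD49a chain, fell by 1.99 ± 0.58, while Rgs2 and Bhlhe40 rose by 0.70 and 0.56. Itga1 kept its call in 7 of 12 alternative settings in which it was tested, Rgs2 in 7 of 14 and Bhlhe40 in 8 of 14. Ccr9, the gut homing chemokine receptor, had 0 UMIs in the cells of the gene pair and 28.7 to 43.1 CPM in other CD8 cells of the same replicates, at least 31.5-fold lower against a floor of 3 UMIs over the group.

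Proliferation genes were higher together: 14 of 22 rose, 0 fell, and all 22 log2 differences were positive, with a median of 0.87. Ccna2, a cyclin of DNA replication and mitosis, rose by 1.13 ± 0.17, Tk1 by 1.02 ± 0.16 and Birc5 by 1.01 ± 0.16. Rrm2, which makes deoxynucleotides, rose by 0.99 ± 0.14, and the replication helicase subunit Mcm5 by 0.86 ± 0.14. Mki67 stood at 1113, 825 and 668 CPM against 302, 561 and 481 and, at a log2 difference of 0.95 ± 0.42, did not pass (adjusted p = 0.325, edgeR). It passed in 4 of the 14 alternative settings, at 0.52 without replicate 2 (adjusted p = 0.0221), 1.18 in thinned cells (0.000397), 1.32 with 1 cell per clonotype (0.000857) and 0.91 without a filter on low counts (0.0114).

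Interferon response genes moved the other way, with 11 of 17 lower, 0 higher and a median log2 difference of -1.21. The log2 differences were -1.95 ± 0.32 for Rtp4, -1.56 ± 0.19 and -1.37 ± 0.20 for the GTPase genes Gbp2 and Gbp4, and -1.21 ± 0.24 for Irf7. Without barcodes that held B cell RNA the counts of these lists were unchanged, 14 of 22 proliferation genes higher and 11 of 17 interferon genes lower. Markers of other pancreatic cells were compared as well. The 6 endocrine markers summed to 0 to 4.64 CPM in the gene pair, with 5 of them at 0 UMIs, against 5.26 to 40.9 CPM, and the hormone gene Ins2 had a log2 difference of -2.23 ± 0.51 (adjusted p = 0.00315, edgeR). The 7 acinar and ductal markers summed to 13.3 to 18.4 CPM against 15.4 to 84.3, with the protease gene Ctrb1 at -2.96 ± 0.50 (adjusted p = 0.000128, edgeR). Prss2 and Cela1 of that list did not pass, at -1.33 ± 0.56 and -0.18 ± 0.45 (adjusted p = 0.114 and 0.844, edgeR). In replicates 1 and 4 the sums were close, at 14.7 against 16.4 and 14.2 against 15.4 CPM. The 6 markers of stroma and endothelium summed to 6.63 to 44.1 CPM, with 4 at 0 UMIs, against 29.4 to 59.8, with Pecam1 at -2.32 ± 0.31 (adjusted p = 2.93e-06, edgeR). In other CD8 cells of replicates 1 to 4, Pecam1 alone gave 59.3, 51.7, 29.5 and 28.0 CPM of list sums of 59.8, 53.0, 30.9 and 29.4. The difference of this list is thus that of 1 gene, and says little of RNA from stroma or endothelium. Of 14 genes that respond to tissue dissociation, 5 fell and 2 rose. Their part in the results was not tested.

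Of the exhaustion list, 7 of 23 rose and 0 fell, with a median of 0.41. Pdcd1, the inhibitory receptor PD-1, stood at 255, 179 and 249 CPM against 157, 148 and 125, and rose by 0.65 ± 0.15 (adjusted p = 0.00256, edgeR). Without replicate 4 its adjusted p was 0.0753. Havcr2, the inhibitory receptor TIM-3, stood at 18.4, 76.3 and 59.0 against 14.3, 38.8 and 31.2, a rise of 0.88 ± 0.20 (adjusted p = 0.00325, edgeR). Its adjusted p was 0.216 without the replicate block, 0.141 without replicate 3 and 0.119 in DESeq2. Tox, a regulator of exhausted T cells, had a log2 difference of 0.47 ± 0.17 (adjusted p = 0.086, edgeR). It passed in 4 of 14 alternative settings, at 0.79 without replicate 3 (adjusted p = 0.000261), 0.54 with replicate 1 included (0.0197), 0.43 without a filter on low counts (0.0163) and 1.22 with 1 cell per clonotype (0.00092). With 1 cell per clonotype, 12 of 20 exhaustion genes rose and the median was 1.20, against a median of -0.12 over all genes in that setting.

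Killing and cytokine genes showed little common direction. In the cytotoxic list 2 of 19 rose, the NK receptor genes Klrc1 and Klrc2 by 0.69 each, and 1 fell, Ctsw. Over all tested genes 6.15% rose and 7.19% fell. Klrc1 kept its call in 12 of 14 alternative settings, Klrc2 and Ctsw in 6 each. Gzmb, a protease of killer granules, stood at 0, 82.9 and 156 CPM against 31.9, 61.6 and 95.5, a log2 difference of 0.28 ± 0.62 (adjusted p = 0.840, edgeR). Gzma, Gzmk, Prf1 and Ifng had log2 differences of 0.18, -0.04, -0.25 and 0.07 and did not pass either. Ccl5, a chemokine of effector cells, was uneven between replicates, at 1171, 2886 and 8359 CPM against 3561, 6880 and 4947. Of the cytokine list only Ltb was called among 10 genes, at -1.22 ± 0.13. Xcl1 and Cxcr6 had log2 differences of 0.39 ± 0.21 and -0.24 ± 0.35 and did not pass. Xcl1, the gene of a chemokine that attracts dendritic cells, passed in 4 of 14 alternative settings, at 0.68 without replicate 4 (adjusted p = 0.000967), 0.70 in thinned cells (0.0478), 0.35 without a filter on low counts (0.042) and 1.56 with 1 cell per clonotype (0.000882). Ccl5 and Cxcr6 passed as lower without replicate 4, at -1.43 and -0.80 (adjusted p = 1.6e-09 and 0.00465, edgeR), and Gzmb as higher without replicate 2, at 0.57 (adjusted p = 0.0323).

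Of the genes of recent receptor signalling, 2 of 18 rose, beside 6.15% of all tested genes. These were Tnfrsf9, by 0.69 ± 0.16, and Nr4a2, by 0.58 ± 0.17. Tnfrsf9 kept its call in 11 of 14 alternative settings and Nr4a2 in 5. Nr4a1, Nr4a3 and Egr2 had log2 differences of 0.41, 0.17 and -0.15 and did not pass. Nr4a1 passed without replicate 4, at 0.74 (adjusted p = 0.00478, edgeR), and with 1 cell per clonotype, at 1.44 (0.000136). Egr2 ranged from -0.41 to 1.00 over the alternatives, with no call, and stood at 1.00 with 1 cell per clonotype (adjusted p = 0.342). Tcrg-C2, a constant gene of the gamma chain locus, rose by 1.54 ± 0.20. Tcrg-C4, another, had a log2 difference of 1.48 ± 0.50 (adjusted p = 0.207, edgeR) and passed in 6 of 14 alternative settings, among them the one without replicate 2 (1.96, adjusted p = 5.59e-20). Eno3, an enolase gene of glycolysis, stood at 55.3, 47.1 and 49.8 CPM against 17.1, 16.6 and 18.7, and rose by 1.52 ± 0.21 (adjusted p = 9.28e-06, edgeR). Eno3 had an adjusted p of 0.174 and a log2 difference of 1.03 once the largest clone of the gene pair was left out of each replicate.

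The number of calls depended on the cells and UMIs counted. With 1 cell per clonotype, which left 8, 5 and 13 cells of the gene pair in replicates 2 to 4, 507 of 8207 genes were called and Slamf6 had a log2 difference of -0.52 (adjusted p = 0.401, edgeR), without the largest TRAV16-TRAJ42 clone of each replicate 767 of 9598 were called, and with each cell thinned to 1000 UMIs 222 of 4971 were. Proliferation genes were higher in 16 of 22 cases with 1 cell per clonotype and in 9 of 22 in thinned cells.

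**Figure D4:**
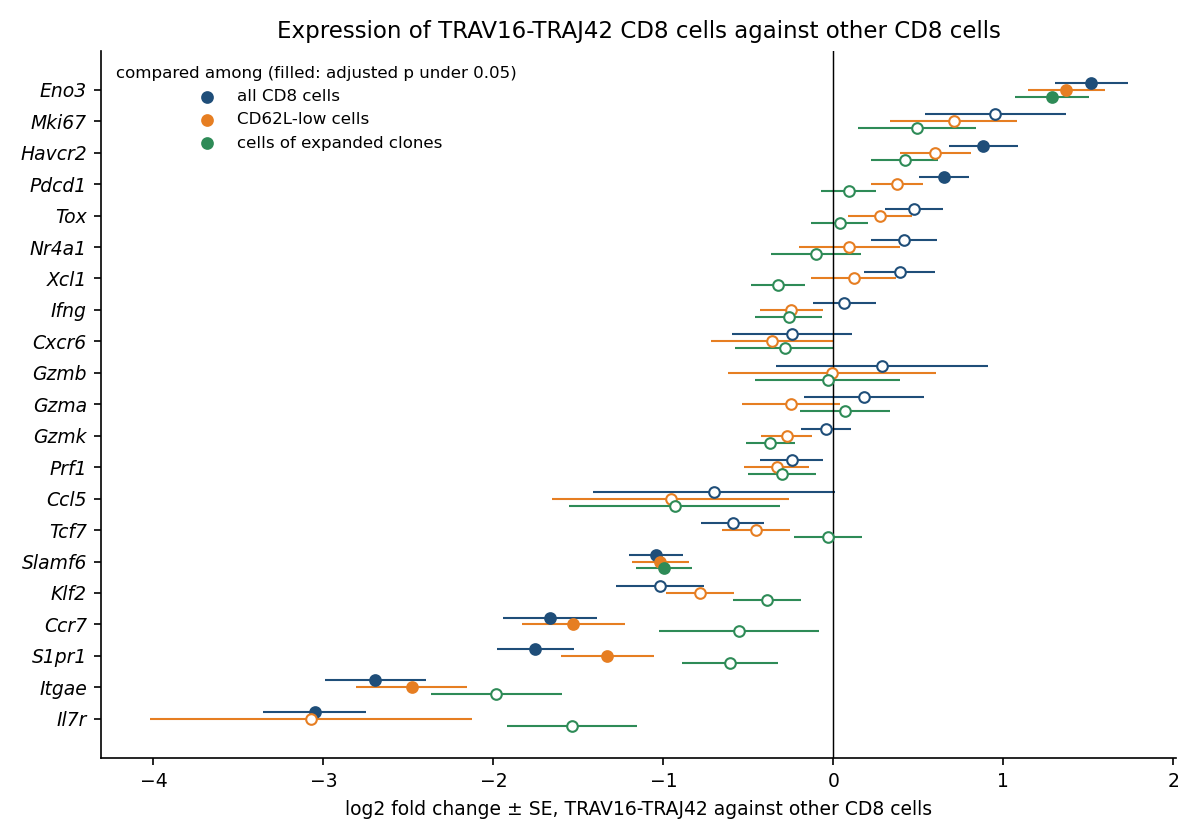
Log2 fold change with its SE (x axis) of TRAV16-TRAJ42 against other CD8 cells for 21 genes (y axis), among all CD8 cells, CD62L-low cells and cells of expanded clones, with n = 3 pairs of replicates. Filled points passed an adjusted p of 0.05, and Slamf6 and Eno3 are filled in all 3 comparisons.

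The comparison was repeated within CD62L-low cells, since other CD8 cells held more CD62L-high cells. It shares its cells with the first comparison. Here 271 of 9446 genes (2.87%) were called, 73 higher (0.773%) and 198 lower (2.1%). Of the stemness list 10 of 20 fell and 0 rose, with a median of -1.01. Slamf6 stood at 104, 67.1 and 59.3 CPM against 190, 134 and 137, with a log2 difference of -1.02 ± 0.17 (adjusted p = 0.000472, edgeR). Log2 differences were -5.33 ± 0.54 for Igfbp4, -2.59 ± 0.26 for Dapl1, -1.69 ± 0.19 for Foxp1 and -2.48 ± 0.33 for Itgae. Igfbp4 had only 2 UMIs in the gene pair, so the size of its fall is uncertain. Ccr9 and Iigp1, an interferon-induced GTPase, had 0 UMIs in the gene pair and were at least 19.6-fold and 11.1-fold lower. Il7r stood at 3.05, 19.0 and 0 CPM against 137, 71.3 and 78.1 but did not pass, at -3.07 ± 0.95 (adjusted p = 0.329, edgeR), and it passed when any of the 3 replicates was left out.

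Of the interferon list 6 of 16 fell within CD62L-low cells, with a median of -1.09, and of the proliferation list 6 of 22 rose, with a median of 0.69. None of the 23 exhaustion genes was called by edgeR or DESeq2, with 5 and 3 at an unadjusted p under 0.05, and Pdcd1 had a log2 difference of 0.38 ± 0.15 (adjusted p = 0.194, edgeR). No gene was called without the replicate block (0, with 1539 at an unadjusted p under 0.05 in edgeR's test), and the count ran from 52 without replicate 3 to 699 without replicate 4. Without replicate 3, 0 of the interferon and 0 of the proliferation genes were called, with 7 and 8 at an unadjusted p under 0.05.

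Within expanded clones, the populations differed in few genes. Only 13 of 9051 genes (0.144%) were called, 1 higher (0.011%) and 12 lower (0.133%), and 654 had an unadjusted p under 0.05. Of the 12 lower genes, 6 are genes of antigen-presenting or B cells: Cd74, H2-Aa, H2-Ab1, H2-Eb1, Igkc and Cd79b. Summed over 5 B cell markers within expanded clones, the gene pair had 10.4, 51.0 and 14.5 CPM in replicates 2 to 4 and other CD8 cells 325, 524 and 201. In replicate 1, outside the test, the order was the opposite, 2195 against 436. Without barcodes that held B cell RNA, 0 genes were called by edgeR, with 642 at an unadjusted p under 0.05.

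The other called genes within expanded clones included Slamf6, at 82.9, 66.1 and 66.8 CPM against 185, 125 and 138. It fell by 1.00 ± 0.16 (adjusted p = 0.0327, edgeR), lower in 3 of 3 tested replicates, while in replicate 1 it stood at 288 against 154. Its adjusted p was 0.335 with replicate 1 included, 0.294 without replicate 3, 0.0954 without replicate 4, 0.279 without the replicate block, 0.0883 in DESeq2 and 0.086 without the B cell barcodes. Log2 differences were -1.61 ± 0.27 for Cd226, an activating receptor, -3.69 ± 0.62 for Trat1, an adaptor of the receptor complex, -1.58 ± 0.26 for Gm2682 and -1.63 ± 0.29 for Kbtbd11. Trat1 had only 3 UMIs in the gene pair, so the size of its fall is uncertain. Cd226, Trat1 and Kbtbd11 kept their calls in 5 of 10 alternative settings each, and Gm2682 in 6 of 11. The remaining call was Zfp36l1. Eno3 was the 1 gene higher, at 72.5, 48.2 and 52.4 CPM against 25.7, 20.3 and 24.2, with a rise of 1.29 ± 0.22 (adjusted p = 0.0351, edgeR). Its adjusted p was 0.761 without replicate 3 and 0.0844 without replicate 4.

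No other gene of the lists was called there, and several values lay near 0. Tcf7, Tox, Gzmb and Pdcd1 had log2 differences of -0.03 ± 0.20, 0.04 ± 0.17, -0.03 ± 0.43 and 0.09 ± 0.16. Of 22 proliferation genes 22 had a positive log2 difference, with a median of 0.47, and 11 had an unadjusted p under 0.05. The replicates differed in this. The list summed to 12910, 11090 and 9316 CPM in replicates 2 to 4, against 6245, 8462 and 9416 CPM in other CD8 cells. In replicate 4 the sum was thus not higher. Of 13 interferon genes 0 had a positive difference, with a median of -0.72. These misses do not show that the populations are alike, since 3 pairs leave a wide interval around each gene.

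Clones of the same gene pair differed among themselves in expression. The values that follow compare clones, with exact 95% Poisson intervals that cover counting error only, and carry no replicate check. Gzmb stood at 262 (204 to 332) CPM in the 20-cell TRBV13-3 and TRBJ2-4 clone of replicate 4 that used the alpha chain of 77 cells. In the 22-cell clone of the same replicate, which has the same beta chain and the other alpha chain, it stood at 19.2 (5.24 to 49.2). In replicate 3 the corresponding clones stood at 94.3 (63.6 to 135) and 112 (81.8 to 149), so the difference in replicate 4 was not seen there.

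Tcf7 ranged from 34.0 (18.6 to 57.03) CPM in the 20-cell clone of replicate 3 to 468 (373 to 580) in the 7-cell TRBV3 clone of replicate 2. That TRBV3 clone had 0 UMIs of both Havcr2 and Gzmb among 177401, which allows up to 20.8 CPM, beside 1246 (1087 to 1421) CPM of Mki67 and 1172 (1019 to 1343) of Xcl1. Havcr2 stood at 91.2 (61.1 to 131) in the 15-cell clone of replicate 3, beside 86.6 (66.6 to 111) in the 29-cell clone of that replicate and 77.1 (47.1 to 119) in the 20-cell clone of replicate 4, and these intervals overlap. Slamf6 varied less, between 46.1 and 96.2 CPM in the 8 clones of at least 7 cells, and each of these values lay below the 151 to 188 CPM of other CD8 cells in the same replicates. The 5-cell clone of replicate 1 was the exception among clones of at least 5 cells, at 286 (163 to 464) against 171. Il7r was at 0 UMIs in 3 of the 8 clones and reached 103 (47.3 to 196) in the 7-cell TRBV13-3 clone of replicate 4.

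**Figure D5:**
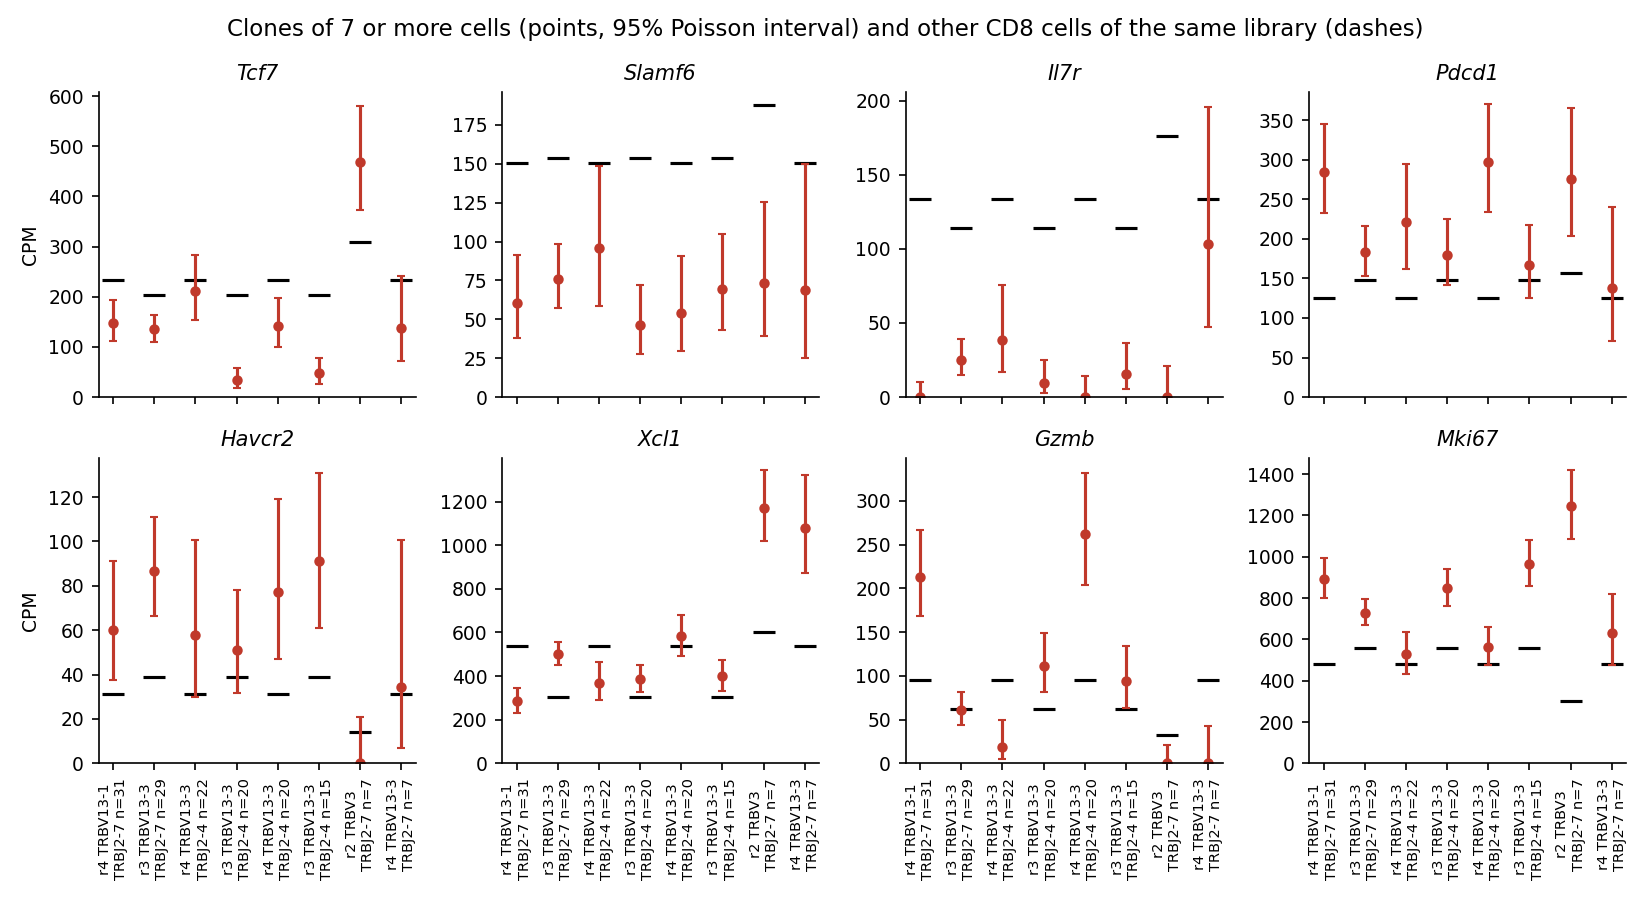
CPM (y axis) of 8 genes in the 8 TRAV16-TRAJ42 clones of at least 7 cells (x axis, r for replicate, n for cells), with exact 95% Poisson intervals, and dashes for other CD8 cells of the same replicate. Slamf6 points lie below the dashes in each clone, while Gzmb points lie on both sides, from 0 to 262.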

How the data were processed

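Gene, antibody and receptor data from 4 replicates were analysed. The deposited matrices hold whole-number counts, UMIs per gene or antibody and cell, written by cellranger 4.0.0 per the file headers, with mm10 and Seurat named in the submitters' processing notes. The receptor tables hold counts of UMIs and reads per contig as the authors deposited them. The libraries held 6175, 4136, 8718 and 8394 barcodes and 34661827, 26861163, 37834174 and 32141055 mRNA UMIs. The members, lists and tests were chosen with earlier results of these data known.

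The quality filter kept cells of 500 UMIs or more and 300 genes or more, with a mitochondrial share up to 8% and no more than 1 productive beta chain. That last filter was the treatment of doublets, and no doublet caller was run. CD62L and CD11a thresholds came from 2-component Gaussian mixtures per library (scikit-learn 1.9.0). A clonotype was a set of productive CDR3 alpha nucleotide sequences with 1 CDR3 beta. UMI sums per population and replicate, with at least 10 member cells, were tested with edgeR 4.0.16 (filterByExpr, TMM, robust quasi-likelihood, replicate block) in R 4.3.3, with Benjamini-Hochberg adjustment and calls at 0.05. Segment genes of receptors and immunoglobulins and the genes of the rule, 644 in all, were left out. Beta segments with at least 10 clonotypes were tested on clonotype counts with library totals and no TMM. DESeq2 1.42.0 was an alternative. Shares over 4 replicates were compared by exact sign-flip permutation in scipy 1.17.1. On simulated counts the share of false calls was above the nominal rate in each of the 3 gene comparisons, so single calls near the threshold are uncertain.

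Replicates pair the populations because both come from the same library. Deviations from the group means correlated at 0.144 to 0.178 (all cells), 0.109 to 0.134 (CD62L-low) and 0.072 to 0.109 (expanded). Genes named were the 10 called genes with the largest change in each direction, up to 5 genes of each list with the smallest adjusted p, a fixed set of 23 genes, called segments, and receptors that were large or found in 2 replicates. The genes printed are a part of these, and some are not reported here. Clones compared in expression were chosen by size after their values were seen. Myb and Zfp36l1 were named after their values were seen.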

Additional observations from a re-analysis of the deposited data

Results flagged for a closer look

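In a check for samples far from the rest of their group, which flags about 1 in 20 groups of 4 by chance, 3 values were picked out, all lengths of CDR3 loops. The mean CDR3 alpha length of the TRAV16-TRAJ42 clonotypes was 45.38 bases in replicate 2 and 45.0 in each of the others, so the gap is the whole range. The mean CDR3 beta length of the pair was 45.0 bases in replicate 1, where it rests on 3 clonotypes, and the gap to the nearest replicate was 0.833 of the range. For the same reason the difference in CDR3 beta length between the pair and other CD8 clonotypes was 3.155 bases in replicate 1 and below 0 in the others, with a gap of 0.911 of the range.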

How the results depend on the processing

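With replicate as a block removed and an unpaired exact permutation test in its place, p was 0.02857 for the difference in expanded cells (45.0 percentage points), CD11a-high cells (36.3), CDR3 alpha length (3.93 bases) and the share of clonotypes with the pair (1.56). That is the smallest two-sided p this test allows with 4 values per group. It is reached whenever the groups do not overlap, so it adds nothing to that fact. Without the block, edgeR called 692, 0 and 0 genes among all, CD62L-low and expanded cells (2638, 1539 and 692 at an unadjusted p under 0.05), and 1 beta J gene. DESeq2 called 470, 77 and 7. Thinned cells gave 222, 50 and 1. Without a filter on low counts 552 (CD62L-low) and 146 (expanded) were called, with replicate 1 included 408 and 8, and without barcodes with B cell RNA 179 and 0 (642 at an unadjusted p under 0.05 among expanded cells). Among all cells, 507 were called with 1 cell per clonotype, 767 without the largest clone of the pair and 821 without receptors found in 2 replicates. Among expanded cells 21 were called without the largest other clone. Counting cells, 9 beta V and 7 beta J genes were called. The cause of these changes was not tested.

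Leaving out each replicate in turn gave 640 to 1268, 52 to 699 and 2 to 62 called genes (the lowest without replicate 3), 1 beta V gene and 0 beta J genes, and differences of 40.1 to 50.5 points (expanded cells), -27.7 to -20.6 (CD62L), 32.8 to 40.5 (CD11a), 3.84 to 4.02 bases (CDR3 alpha), -3.46 to -1.17 bases (CDR3 beta) and 1.12 to 2.01 points (pair share). Hspa1b, a heat shock gene, changed sign in thinned cells, at a log2 difference of 0.05 (adjusted p = 0.974, edgeR) against -0.46. Of the 1302 genes called among all cells, 846 of 880 tested kept their direction in thinned cells and 1195 of 1205 with 1 cell per clonotype. The 7 cells of replicate 1 limit what that replicate can show. Thinning, the B cell barcodes, the inclusion of replicate 1, the receptors found in 2 replicates, the largest other clone and the clonotype by CDR3 beta alone were chosen after seeing the data.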
